A study of Mus musculus with 21 samples.

Results

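Copy number along chromosome 4 was measured in 21 mouse liver tumours by array comparative genomic hybridization, in which tumour DNA and reference DNA compete for the same probes and a log2 ratio below 0 means less tumour DNA than reference DNA at that position. The regions described are all probed positions of chromosome 4, 5642 of the 96579 non-control positions of the arrays, taken by their chromosome, which was selected on the low log2 ratios measured there in these 21 tumours. The levels of chromosome 4 are therefore given as a description with no test, and only the comparison of the treatment groups and the relations with array measures were tested.

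All mice were C57BL/6 and were fed CD-HFD, a choline-deficient high-fat diet that causes steatohepatitis with liver cancer, for 12 months. The 9 CD-HFD tumours came from mice given the diet alone, and the 12 anti-PD1 tumours from mice that also received anti-PD1, an antibody that blocks the inhibitory receptor PD1 of T cells, for 8 weeks. According to the methods of the study the mice were male. Tumour DNA came from fixed, paraffin-embedded sections, was labelled with Cy3 and was set on every array against Cy5-labelled DNA of a pool that the labels describe as liver tails of the same strain, with no array of the opposite dye orientation. Tumours whose titles start with the same number were read as lesions of 1 mouse, which gave 7 mice per group, whereas the design text counts every tumour as a mouse. Either treatment group holds only mice that developed a tumour. A section holds tumour cells together with other cells, so a loss in fewer cells and a loss diluted by other cells cannot be told apart.

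The arrays came on 3 slides and in 2 designs with 3098 and 3321 probed positions on chromosome 4, of which 777 were on both, so slide 1 was read with one design and slides 2 and 3 with the other. Between 65.0% and 99.99% of the tumour spots of an array were well above background (median 96.5%), and neighbouring probes differed with a noise SD of 0.41 to 0.68 on the log2 scale. The 2 dimmest arrays were lesion 1 of mouse 608, with 65.0% of its tumour spots well above background, and lesion 1 of mouse 1770, with 82.1%.

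Mouse chromosomes carry the centromere at one end, so chromosome 4 has 1 long arm that runs from a proximal to a distal end. It holds Cdkn2a and Mtap, a pair of neighbours often lost together in tumours, the distal genes Arid1a, Runx3, Chd5 and Trp73, which act as tumour suppressors in several tissues, and many genes of hepatocyte metabolism. A cell that loses 1 of its 2 copies has a log2 ratio of −1 there, and admixed cells without the loss bring the value closer to 0. The probed positions reached from 3012291 to 155559340 of the mm9 build, the build of the array annotation. Of the 5642 probe sequences, 5638 matched the GRCm38 genome at a single place, which gave their annotation.

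The uncorrected ratios along this chromosome moved with the GC content of the DNA, so the probes that stand for its lowest and highest windows of 1 Mb are shown with G and C in capitals and A and T in lower case, 5′ to 3′. The first comes from the window with the lowest median ratio over the 21 tumours, the next from the window with the highest, and the last pair from the lowest and the highest window after correction for GC content.
Aldh4a1 probe, chr4:139196988-139197038: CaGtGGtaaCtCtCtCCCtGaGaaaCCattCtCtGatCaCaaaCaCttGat
Gm11867 probe, chr4:18703988-18704047: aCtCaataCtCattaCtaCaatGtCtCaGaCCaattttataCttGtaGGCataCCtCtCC
Probe near Cylc2, chr4:51288412-51288471: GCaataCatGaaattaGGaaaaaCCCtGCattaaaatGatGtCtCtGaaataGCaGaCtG
Probe near Foxd3, chr4:99325970-99326029: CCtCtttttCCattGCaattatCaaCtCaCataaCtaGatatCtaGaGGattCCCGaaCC
All 4 matched the plus strand of GRCm38. The Aldh4a1 probe lies in an exon of Aldh4a1, which encodes an enzyme of proline breakdown, and also within an intron of the overlapping Gm21969. Of its 51 bases 22 are G or C, and the 50 kb around it hold 52.2% G and C. The Gm11867 probe lies in an intron of that gene, has 22 G or C among 60 bases, and its surroundings hold 35.3%. The other two are intergenic, one 45.3 kb from Cylc2 with 36.7% G and C around it and the other 0.7 kb from Foxd3, a developmental transcription factor gene, with 46.0%. The Aldh4a1 probe was below 0 in 19 of 21 tumours with a median log2 ratio of −0.51, and the Gm11867 probe was below 0 in 3 of 21 with a median of 0.42. After the GC correction the probe near Cylc2 had a median of −0.51 and was below 0 in all 21 tumours, whereas the probe near Foxd3 had a median of 0.37 and was below 0 in 0 of 21.

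The level of chromosome 4 was the mean log2 ratio of its probes after each array was centred on its median. It was lowest in lesion 1 of mouse 2064, a CD-HFD tumour, at −0.31, followed by lesion 1 of mouse 1770, also CD-HFD, at −0.21. The next 3 were anti-PD1 tumours, lesion 6 of mouse 608 at −0.18, lesion 5 of mouse 612 at −0.15 and lesion 3 of mouse 608 at −0.12. CD-HFD tumours at a similar level were lesion 1 of mouse 2088 at −0.11 and lesion 4 of mouse 1770 at −0.099. This order changed with normexp, a model-based background correction of the mean spot signals. Lesion 1 of mouse 2064 was still lowest, at −0.21. Lesion 6 of mouse 608 (−0.142), lesion 5 of mouse 612 (−0.133) and lesion 3 of mouse 608 (−0.115) were then below lesion 1 of mouse 1770 (−0.111).

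The other 14 tumours lay between −0.063 and 0.060. Among the anti-PD1 tumours these were lesion 1 of mouse 2094 at −0.063, mouse 1109 at −0.062, lesion 2 of mouse 612 at −0.058, lesion 3 of mouse 2094 at −0.035, lesion 2 of mouse 2097 at −0.030, lesion 1 of mouse 604 at −0.0042, lesion 1 of mouse 2116 at 0.014, lesion 2 of mouse 2094 at 0.019 and lesion 1 of mouse 608 at 0.060. Among the CD-HFD tumours these were lesion 2 of mouse 2064 at −0.059, mouse 822 at −0.034, lesion 1 of mouse 2085 at 0.0012, lesion 2 of mouse 2115 at 0.013 and lesion 2 of mouse 2067 at 0.017. Low and near-zero tumours were present in both groups, and the groups overlapped. In the loess-normalized ratios that the authors deposited, for fewer probes, the levels were lower. There 11 of 12 anti-PD1 tumours (−0.21 to 0.013) and 9 of 9 CD-HFD tumours (−0.42 to −0.017) were below 0, against 9 and 6 in the values above.

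Correction of each array for GC content (that of the probe sequence and of its 50-kb surroundings) kept 5 tumours, from 5 mice, below −0.1. Lesion 1 of mouse 2064 was then at −0.31, lesion 1 of mouse 1770 at −0.22, lesion 6 of mouse 608 at −0.16, lesion 5 of mouse 612 at −0.14 and lesion 1 of mouse 2088 at −0.10. As a linear ratio of tumour to reference these levels ran from 0.81 in lesion 1 of mouse 2064 to 0.93 in lesion 1 of mouse 2088. These levels depend on the centring: with corrected ratios centred on the mode of the 1-Mb windows of the other autosomes, the 5 tumours were at −0.32, −0.27, −0.0015, −0.19 and −0.051, in the same order, so lesion 6 of mouse 608 and lesion 1 of mouse 2088 were no longer below −0.1. Centred on the median, lesion 3 of mouse 608 followed at −0.085, lesion 4 of mouse 1770 moved from −0.099 to −0.049, and the remaining 14 tumours lay between −0.037 and 0.047. With GC correction and normexp together, lesion 1 of mouse 2088 was at −0.095 and so not below −0.1. Lesion 1 of mouse 1770, at −0.11, was then above lesion 6 of mouse 608 (−0.13) and lesion 5 of mouse 612 (−0.12).

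**Figure D1:**
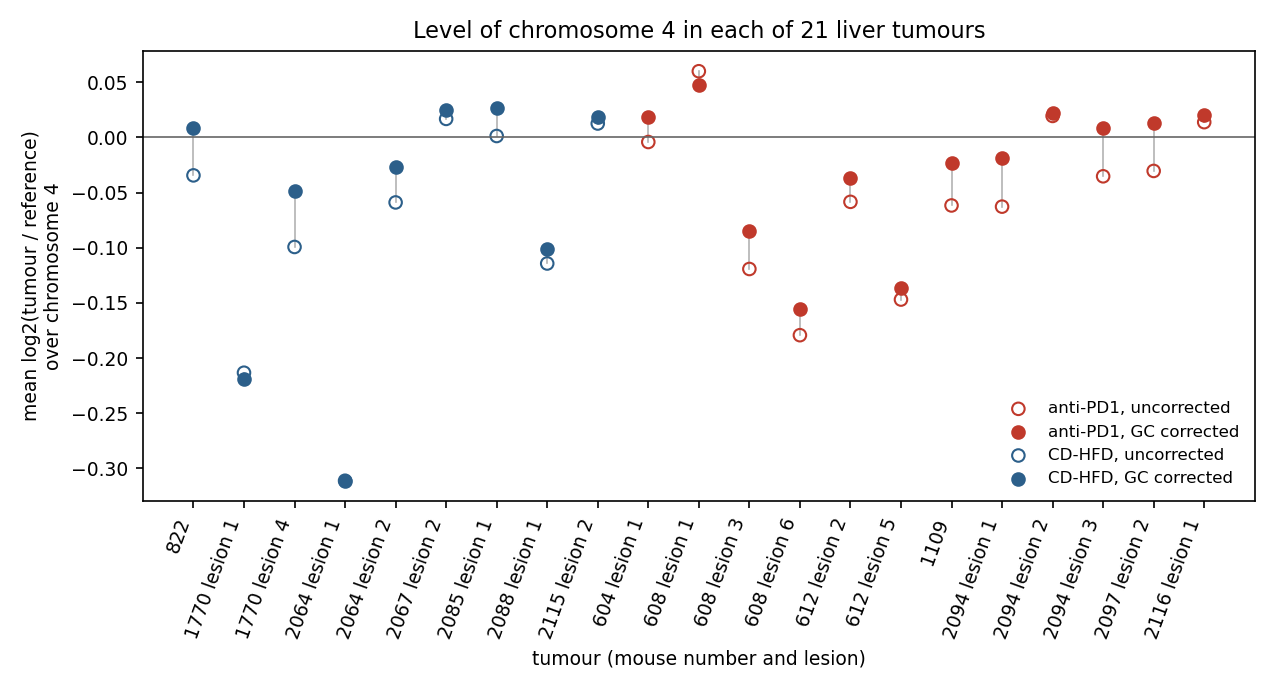
Mean log2 ratio of tumour over reference on chromosome 4 (vertical axis) in each of 21 tumours (horizontal axis, named by mouse and lesion). Open circles are uncorrected values, filled circles are values corrected for GC content, and grey lines join the pair of 1 tumour; 5 filled circles are below −0.1, the lowest at −0.31.

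With median centring, chromosome 4 was below −0.1 after the GC correction in more tumours than any of the other 18 autosomes, where the number ran from 0 to 4 of 21, but the margin over the next ones (chromosomes 6, 9 and 13, with 4 tumours each) was 1 tumour. With corrected ratios centred on the mode there was no lead, since chromosomes 4, 6, 9, 12 and 13 had 3 tumours each. Below −0.2 chromosome 4 did not lead: with median centring there were 3 tumours for chromosome 12 and 2 each for chromosomes 4, 9 and 13, and with the mode chromosome 6 also had 3. Its spread over the tumours was middling, with the 12th largest SD of 19 autosomes (0.093). No tumour had a chromosome 4 above 0.1, which also held for chromosomes 2, 7, 9 and 11 with both centrings and for chromosome 13 with the median. Since chromosome 4 was chosen for its low ratios, these counts are a description. The GC correction was fitted on the other autosomes without chromosome 4, so the chromosomes compared were not treated alike.

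Between arrays, the uncorrected signal of chromosome 4 varied in the tumour channel. The reference channel held the same pool on every array and so could vary little, and the cause of the spread was not tested. On the 13 arrays of design 2, the mean log2 signal of chromosome 4 minus that of the other autosomes spread from −0.37 to −0.0024 in the tumour channel and from −0.0055 to 0.0075 in the reference channel. On the 8 arrays of design 1 it spread from −0.28 to 0.024 in the tumour channel and from −0.022 to −0.019 in the reference channel.

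Along the chromosome, the uncorrected ratio was not level. In 20 of 21 tumours it was lower beyond 100 Mb than before it, with differences down to −0.31, and lesion 1 of mouse 608 was the exception at 0.032. The first 100 Mb hold 41.5% G and C around their probes and the rest 46.8%. Over the 132 windows of 1 Mb the median ratio of the 21 tumours followed GC content with r = −0.80 and rho = −0.76, a description across windows that share arrays and neighbours.

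**Figure D2:**
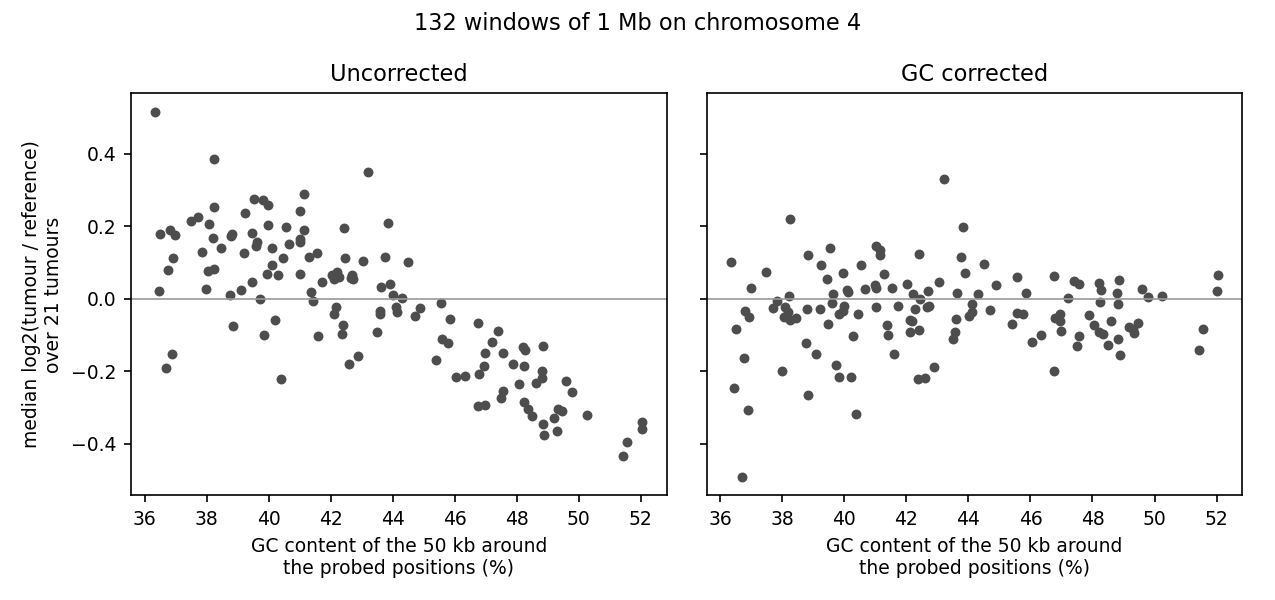
Median log2 ratio over 21 tumours (vertical axis) of the 132 windows of 1 Mb on chromosome 4 against the GC content of the 50 kb around their probed positions in percent (horizontal axis), before (left) and after (right) correction for GC content. The uncorrected medians fall from 0.52 to −0.43 as GC content rises, and after the correction r is 0.060.

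After the GC correction the distal part differed from the rest by −0.052 to 0.0017 in 20 tumours and by 0.11 in lesion 1 of mouse 2088. The uncorrected loss calls moved with it. A loss was a segment of at least 10 probes with a mean of −0.2 or less, and before the correction such segments covered 1.66% to 100% of chromosome 4 in 17 tumours and 0% in 4. In 7 of those tumours the lowest uncorrected segment started between 116 and 147 Mb and ran to the distal end. In others it lay in the proximal part, as in lesion 2 of mouse 2097 (41307947 to 43741249, mean −0.46) and lesion 2 of mouse 2064 (41239756 to 43741249, mean −0.45). Chromosome 4 of these tumours formed single segments after the correction, with means of 0.013 and −0.026. After the correction, losses were called in 3 tumours, all CD-HFD: in lesion 1 of mouse 2064 and lesion 1 of mouse 1770 over 100% of the chromosome, and in lesion 1 of mouse 2088 over 13.1% of it. The anti-PD1 tumours lesion 6 of mouse 608 and lesion 5 of mouse 612 had single segments over the whole chromosome whose means, −0.16 and −0.14, did not reach that threshold. With GC correction and normexp (a model-based background correction of the mean spot signals) together, lesion 1 of mouse 1770 was at −0.11 and no longer called, which left 2 tumours, and lesion 1 of mouse 2064 moved from −0.31 to −0.20, just past the threshold. With GC correction and centring on the mode, a choice made like the former after the data were seen, the same 3 tumours were called. Without the GC correction, centring on the mode put lesion 5 of mouse 612 and lesion 3 of mouse 608, both anti-PD1, at −0.24 and −0.22. It also put lesion 4 of mouse 1770, a CD-HFD tumour, at −0.22. With the GC correction and the mode these tumours were at −0.19, −0.075 and −0.012, in the same order. On the other autosomes lost segments covered 0% to 22.4% of the length before the correction (median 8.84% over the 21 tumours) and 0% to 16.9% after it, with 9 tumours above 0%. After the correction this share was 16.9% in lesion 1 of mouse 2064, 14.5% in lesion 1 of mouse 1770 and 0% in lesion 1 of mouse 2088.

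**Figure D3:**
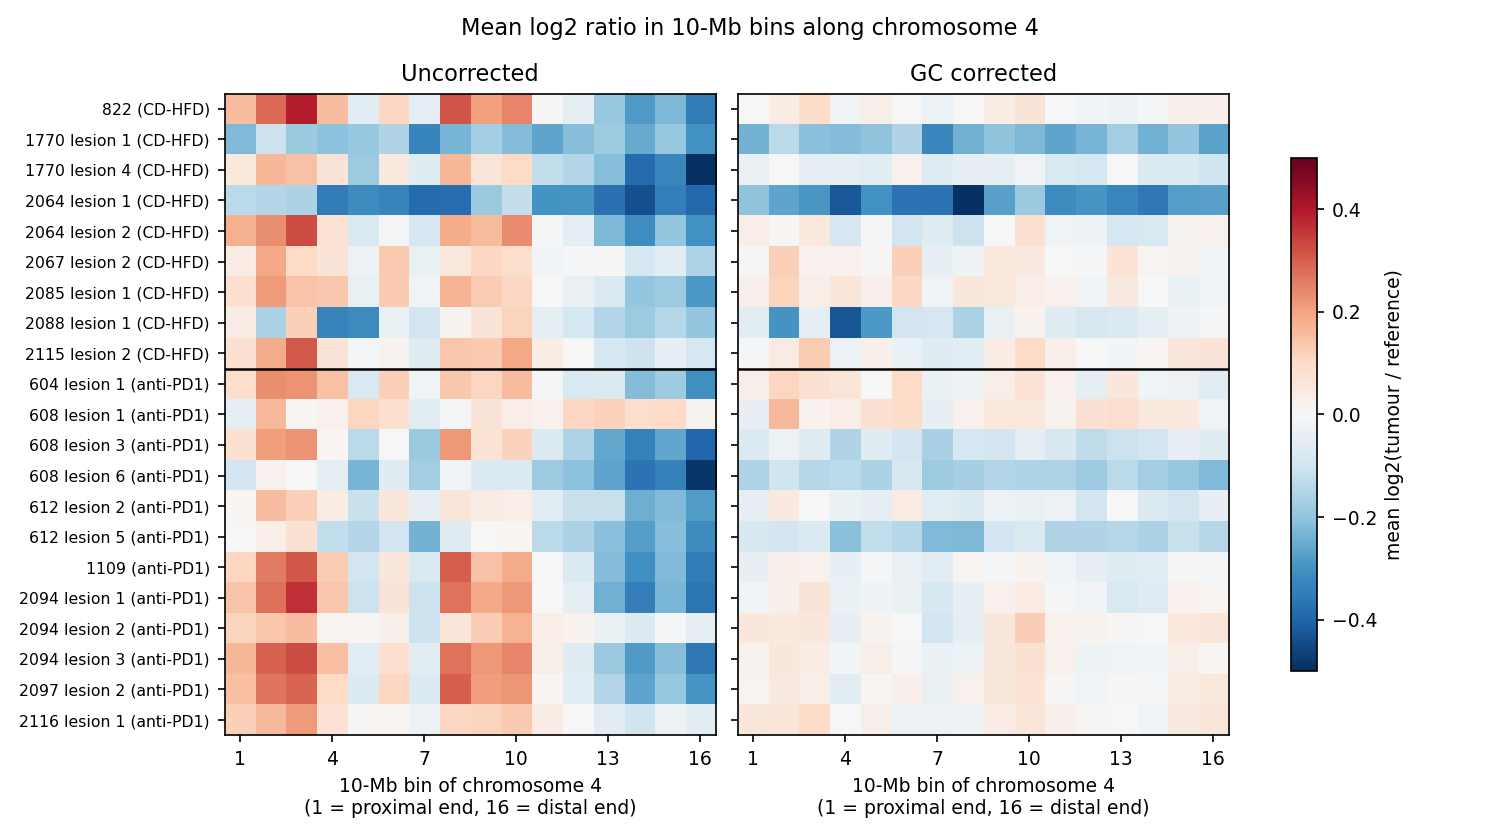
Mean log2 ratio of tumour over reference (colour, blue below 0 and red above 0) in the 16 bins of 10 Mb along chromosome 4 (horizontal axis, bin 1 proximal, bin 16 distal) in each tumour (rows, CD-HFD above the black line and anti-PD1 below), uncorrected at left and GC corrected at right. After the correction, with median centring, 5 tumours have all 16 bins below 0, and lesion 1 of mouse 2088 has its low bins in the proximal part.

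In 5 tumours all 16 bins of 10 Mb were below 0 after the correction. The bins of lesion 1 of mouse 2064 ran from −0.53 to −0.19, those of lesion 1 of mouse 1770 from −0.33 to −0.14, those of lesion 6 of mouse 608 from −0.22 to −0.081, those of lesion 5 of mouse 612 from −0.22 to −0.071 and those of lesion 3 of mouse 608 from −0.16 to −0.030. With median centring the chromosome was low from end to end in these tumours: 126, 124, 121, 115 and 109 of the 132 windows were below 0, in the same order. Centred on the mode, lesion 6 of mouse 608 had 8 of 16 bins and 66 of 132 windows below 0, and the other 4 still had all 16 bins below 0, so what follows on tumours low from end to end holds for it with median centring. In lesion 1 of mouse 2088 100 windows were below 0, and in the other 15 tumours between 50 and 93.

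Lesion 1 of mouse 2088 had a different shape. Its lost segment reached from 28123716 to 48131069 of mm9, 20.01 Mb with 391 probes and a mean of −0.38, and had the same ends with and without the GC correction. The 24.9 Mb proximal to it had a mean of −0.14 and the 107 Mb distal to it a mean of −0.054. All 12 windows of 1 Mb inside the segment were below 0, from −0.57 to −0.17 with a median of −0.35, and 11 of them were below −0.2. Outside it, 22 of 120 windows were below −0.2 and the median was −0.089. Bins toward the proximal end were uneven, with −0.30 from 10 to 20 Mb but −0.045 from 20 to 30 Mb, a bin that includes the start of the segment.

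**Figure D4:**
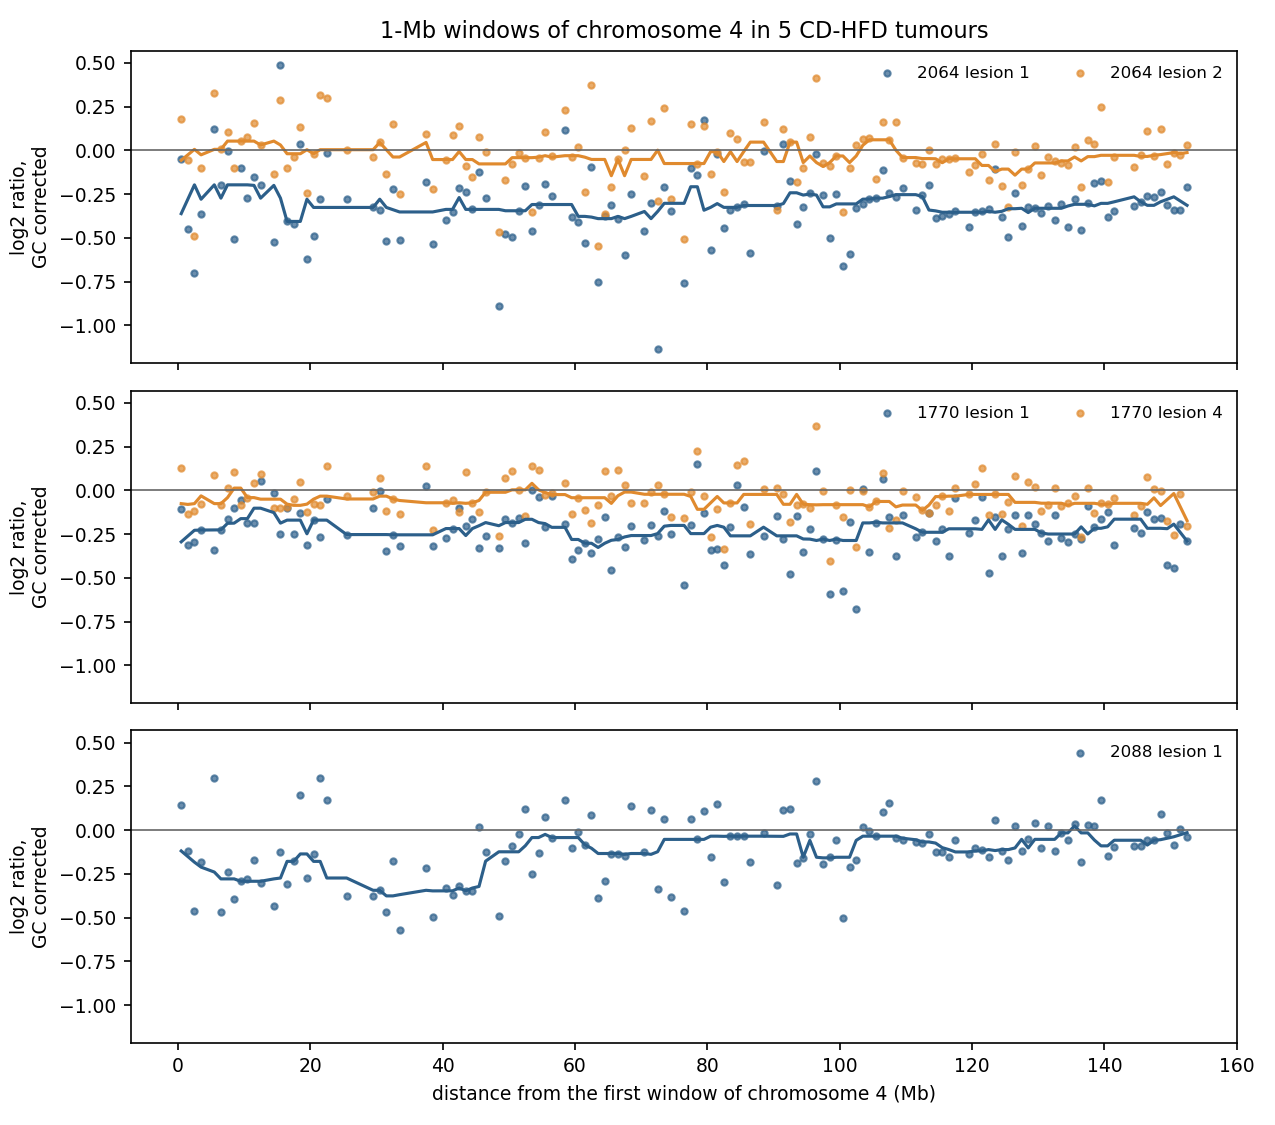
GC-corrected log2 ratio (vertical axis) of 1-Mb windows against the distance from the first window of chromosome 4 in Mb (horizontal axis) in 5 CD-HFD tumours; points are windows and lines are running medians of 9 windows. Lesion 1 of mice 2064 and 1770 lies below the other lesion of the same mouse in 129 and 126 of the 132 windows, and lesion 1 of mouse 2088 is low in the proximal part.

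Lesions of 1 mouse differed. In mouse 2064, both lesions were hybridised on the same slide and lesion 1 was 0.28 below lesion 2 after the GC correction (−0.31 and −0.026). In mouse 1770, also on a single slide, lesion 1 was 0.17 below lesion 4 (−0.22 and −0.049). In mouse 608, lesion 6 at −0.16 and lesion 3 at −0.085 were below lesion 1 at 0.047, the dimmest array. In mouse 612, lesion 5 at −0.14 was below lesion 2 at −0.037, on different slides and designs. The 3 lesions of mouse 2094 lay close together, at −0.019, 0.022 and 0.0086. The largest gap within a mouse was over 0.1 in 3 of the 5 mice with several lesions (608, 1770 and 2064). With corrected ratios centred on the mode it was over 0.1 in mice 612, 1770 and 2064, the gap in mouse 608 falling from 0.20 to 0.093 and that in mouse 612 rising from 0.099 to 0.20. With GC correction and normexp it was over 0.1 in mice 608 and 2064 only, and the gaps were 0.12 in mouse 608, 0.14 in mouse 2064, 0.070 in mouse 1770 and 0.066 in mouse 612.

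The lists of chromosome 4 genes, chosen with earlier results of these data known, held 70 genes, of which 61 had a probe named for them, in 39 windows of 1 Mb. Genes that share a window share its value. In lesion 1 of mouse 2064 the windows of 60 of the 61 genes were below 0 after the GC correction, with a median of −0.31. The corresponding numbers were 58 in lesion 1 of mouse 1770 (median −0.22), 59 in lesion 6 of mouse 608 (median −0.15), 55 in lesion 5 of mouse 612 (median −0.13) and 56 in lesion 3 of mouse 608 (median −0.086). In lesion 1 of mouse 2088, 45 were below 0 with a median of −0.058. Of all 132 windows of the chromosome, 95.5%, 93.9%, 91.7%, 87.1%, 82.6% and 75.8% were below 0 in these tumours, in the same order.

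Of 20 tumour suppressor and cell cycle genes, 19 were represented. The window of Cdkn2a, whose products hold back the cell cycle, and of its neighbour Mtap, an enzyme of methionine salvage, was at −0.30 in lesion 1 of mouse 2064, at −0.096 in lesion 1 of mouse 1770 and between −0.11 and −0.018 in the other 4 low tumours. Its median over the 21 tumours was 0.030. The lowest value of this window was that of lesion 1 of mouse 2064, whose whole chromosome was at a similar level. Arid1a, a subunit of a chromatin remodelling complex, shared a window with Nr0b2 at −0.36, −0.24, −0.25, −0.23 and −0.11 in the 5 tumours that were low from end to end, in the order given above, but this window was below 0 in all 21 tumours, with a median of −0.11. Runx3, a transcription factor, was at −0.32, −0.29, −0.15, −0.12 and −0.069, with a median of 0.015 over all tumours. Chd5, a chromatin remodeller, was at −0.24, −0.16, −0.16, −0.091 and 0.065, the last being its median over all tumours. The window of Cdkn2c, another inhibitor of cyclin-dependent kinases, was at −0.11 in lesion 1 of mouse 2064 and above 0 in the other low tumours, with a median of 0.15 over all 21.

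The 20.01-Mb segment of lesion 1 of mouse 2088 held 7 of the listed genes, and all 7 had windows below −0.2 in that tumour, as had 11 of the 12 windows inside the segment. Bach2, a repressor of lymphocyte differentiation genes, Map3k7, a kinase of the TGFβ and NF-κB pathways, and Casp8ap2 shared a window at −0.38, against a median of 0.016 over the 21 tumours. Pax5, the B cell transcription factor, was at −0.37, and Tgfbr1, a receptor of TGFβ, at −0.35. Galt, an enzyme of galactose metabolism, was at −0.50 and Cd72, a B cell surface receptor, at −0.33. The windows of Tgfbr1, Galt and Cd72 had medians of −0.099, −0.20 and −0.088 over all tumours. Ccne2, a cyclin gene proximal to the segment, was also low there, at −0.39.

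Of 13 oncogenes and growth signalling genes, 12 were represented. Jak1, a cytokine receptor kinase, was at −0.26 in lesion 1 of mouse 2064 and at −0.28 in lesion 1 of mouse 1770, and Mtor, a kinase of growth control, at −0.32 and −0.22. The window of Jun, an AP-1 transcription factor, was at 0.039 in lesion 1 of mouse 2064 and at −0.28 in lesion 1 of mouse 1770. Lyn, Mos and Plag1, at the proximal end, shared a window that was at −0.049 and −0.11 in these tumours.

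Of 19 genes of liver metabolism and secreted proteins, 17 were represented, in 13 windows, and all 17 were below 0 in lesion 1 of mouse 2064, from −0.53 to −0.25, as were 126 of the 132 windows of the chromosome. Abca1, the cholesterol exporter, was at −0.49 in that tumour and at −0.18 in lesion 1 of mouse 1770. Lepr, the leptin receptor, was at −0.50 and −0.59, but its window had a median of −0.22 over all tumours. Of 18 immune genes, 13 were represented, in 9 windows, and were below 0 in each of the 5 tumours low from end to end, where 95.5%, 93.9%, 91.7%, 87.1% and 82.6% of all windows of the chromosome were below 0. Tlr4, the receptor for lipopolysaccharide, was lowest in lesion 1 of mouse 2064 at −0.75, in a window of 20 probes with a median of −0.27 over all tumours. C1qa, C1qb and C1qc, the chains of complement C1q, shared a window at −0.31 in lesion 1 of mouse 2064 and −0.27 in lesion 1 of mouse 1770.

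Some windows departed from 0 in nearly all tumours. Before the correction the 3 lowest medians were at 139000001 to 140000000 with Aldh4a1 and Pax7 (−0.43), at 153000001 to 154000000 with Trp73 and Prdm16 (−0.40) and at 125000001 to 126000000 with Csf3r and Grik3 (−0.38), all of them GC rich. The 3 highest were at 18000001 to 19000000 with Mmp16 (0.52), at 25000001 to 26000000 with Fut9 (0.39) and at 99000001 to 100000000 with Foxd3 and Ror1 (0.35). After the correction the GC-rich windows came to −0.14, −0.084 and −0.16.

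The corrected extremes were other windows. The lowest were at 51000001 to 52000000 with Cylc2 (−0.49), at 5000001 to 6000000 with Fam110b (−0.32) and at 79000001 to 80000000 with no named gene (−0.31). The highest were the window of Foxd3 and Ror1 (0.33), the window of Fut9 (0.22) and the window at 8000001 to 9000000 with Chd7 and Rab2a (0.20). Several moved with the array design: the Cylc2 window had a median of −0.13 on design 1 (10 probes) and −0.56 on design 2 (7 probes), and the Mmp16 window was at 0.013 on design 1 and at 0.62 on design 2 before the correction. The Foxd3 window was above 0 in 20 of 21 tumours, with 0.28 on design 1 and 0.34 on design 2 after the correction. A 0.467-Mb segment in it, from 99389237 to 99856013 with 10 probes, was called a gain in lesion 4 of mouse 1770 (0.91) and lesion 1 of mouse 2085 (0.86).

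Treatment groups were compared for the question of whether anti-PD1 changed copy number in these tumours. The 7 anti-PD1 mice had a mean chromosome 4 level of −0.042 ± 0.042 (SD) and the 7 CD-HFD mice of −0.066 ± 0.085. The fit of limma over 20 chromosomes, with the mouse as a random block, gave a difference of 0.039 (SE 0.041) with an adjusted p of 0.877, anti-PD1 higher, and called 0% of the 20 chromosomes tested. The difference was −0.0053 with array weights, 0.011 without mouse 2064 and 0.024 (SE 0.035) in a fit on the mouse means. In the fit with the mouse as a block the correlation within mice was −0.0092, so tumours were weighted nearly alike. After the GC correction the means were −0.017 ± 0.043 and −0.046 ± 0.085. The groups overlapped: anti-PD1 mice ran from −0.10 to 0.014 and CD-HFD mice from −0.19 to 0.017 before the correction.

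**Figure D5:**
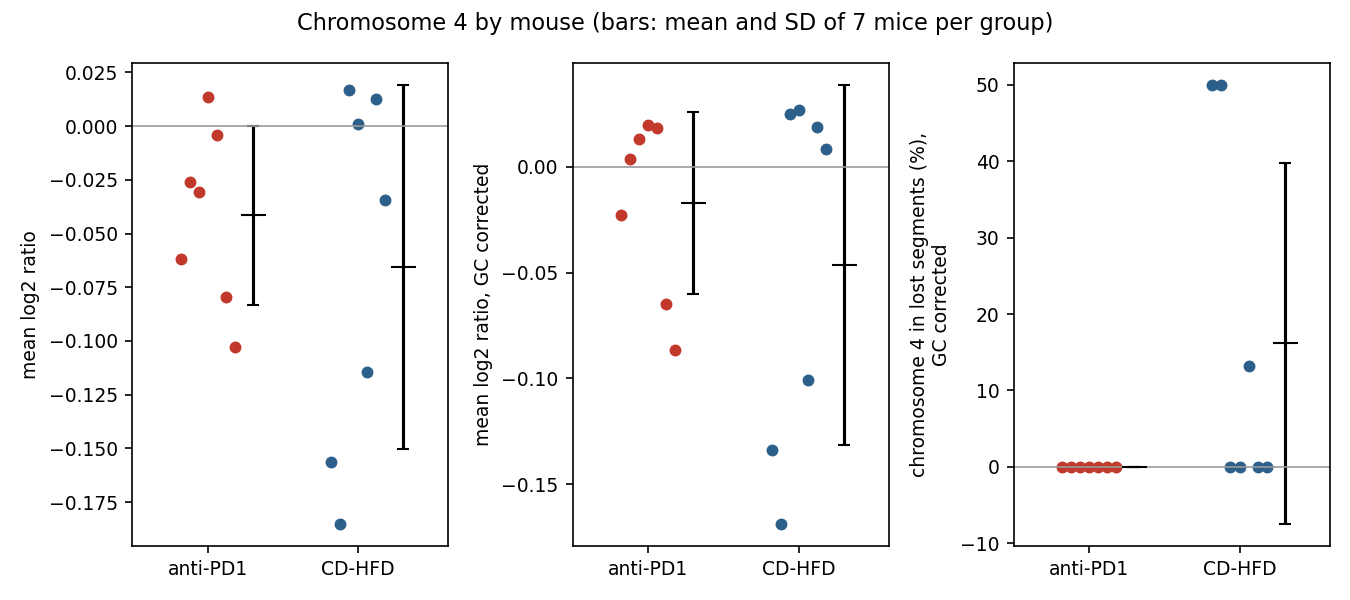
Chromosome 4 in 7 anti-PD1 and 7 CD-HFD mice: mean log2 ratio (left), the same after GC correction (middle) and the share of the chromosome in lost segments after GC correction in percent (right). Points are mice (means over their lesions) and the bars show mean and SD; the groups overlap in the left and middle panels, and 3 CD-HFD mice and 0 anti-PD1 mice have a lost share above 0.

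Slides gave differing directions, and they are not separate sets of mice, since mice 608, 612 and 2094 had lesions on slide 3 and on another slide. On slide 1, with 3 mice per group, anti-PD1 was 0.0053 higher, on slide 2, also 3 against 3, it was 0.074 higher, and on slide 3 the 4 anti-PD1 mice were 0.043 below the only CD-HFD mouse. The exact permutation p was 1 on slide 1 and 0.30 on slide 2, where 3 against 3 cannot go below 0.10.

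Over the windows, limma called 0 of the 132 of chromosome 4 at an adjusted p of 0.05, as it called 0% of the 2223 windows of the genome. At an unadjusted p under 0.05 it had 0 of the 132, against 0.9% of the 2223. The ratio was higher in anti-PD1 tumours in 119 of the 132 windows with a median difference of 0.046, and in 49.7% of all windows with a median of −0.00049. Windows of 1 chromosome share its level, so the 119 are not separate observations. The smallest p of chromosome 4, 0.055 with limma and an adjusted p of 0.999, was at 34000001 to 35000000, which holds Cnr1, the cannabinoid receptor gene, and Orc3, of the origin recognition complex. There anti-PD1 mice were at 0.049 ± 0.095 (SD) and CD-HFD mice at −0.082 ± 0.18. None of the 61 listed genes lay in a window that passed the test. Anti-PD1 was higher at 53 of them, with differences from −0.011 at Sdhb and Epha2, which share a window, to 0.13 at Klf4.

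The lost share of chromosome 4 was 17.1 ± 11.8% (SD) in 7 anti-PD1 mice and 25.9 ± 27.4% in 7 CD-HFD mice before the correction, with an exact two-sided permutation p of 0.443 over 3432 splits of the mice. This difference of −8.80 percentage points was −2.22 without mouse 1770 and −2.52 without mouse 2064. After the correction the lost share was 0% in every anti-PD1 mouse, and in the CD-HFD mice it was 50% in mice 1770 and 2064, 13.1% in mouse 2088 and 0% in the other 4, a mean of 16.2 ± 23.6% (exact permutation p = 0.192). With GC correction and normexp together the difference shrank from −16.2 to −9.02 percentage points (exact permutation p = 0.462). The difference between the distal part and the rest was −0.21 ± 0.066 in anti-PD1 and −0.17 ± 0.086 in CD-HFD mice (exact permutation p = 0.351). After the correction it was −0.021 ± 0.014 and −0.0025 ± 0.051 (exact permutation p = 0.487). On slides 1, 2 and 3 the corrected lost share differed by −16.7, −21.0 and 0 percentage points and the uncorrected distal difference by −0.0043, −0.11 and 0.12. None of these tests over the 14 mice passed the threshold of 0.05.

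Across the 14 mice, the level of chromosome 4, uncorrected and GC corrected, was compared with 3 array measures. The uncorrected level had r = 0.55 (permutation p = 0.060) and rho = 0.54 (p = 0.050) with the share of tumour spots well above background, 0.192 and 0.150 after Benjamini-Hochberg adjustment over 6 relations. Without mice 608 and 1770, the farthest from the median of that share, r was 0.51 (permutation p = 0.120). With the noise of the array it had r = −0.44 (permutation p = 0.128) and rho = −0.36 (p = 0.208), and without mice 2064 and 2067 r was −0.43. With the GC slope of the array it had r = 0.034 (permutation p = 0.888) and rho = 0.31 (p = 0.283), and without mice 822 and 1109 r was 0.096. The GC-corrected level had r = 0.54 (permutation p = 0.067) and rho = 0.56 (p = 0.039) with the share of spots above background, r = −0.48 (p = 0.096) and rho = −0.45 (p = 0.104) with noise, and r = −0.15 (p = 0.636) and rho = 0.21 (p = 0.464) with the GC slope. None of the 6 relations over the 14 mice passed after adjustment.

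Within slides, where 6 mice could be ranked, the relation with noise had opposite signs, a difference that was not tested: r was 0.22 on slide 1 and −0.93 on slide 2 (exact permutation p = 0.606 and 0.0028, or 0.875 and 0.017 after Benjamini-Hochberg adjustment over the 6 relations within slides), and rho on slide 2 was −1. On slide 2 the noisiest mouse, by the mean of its lesions, was mouse 2064, whose mean chromosome 4 level was lowest. Within that mouse the noisier array was not the low one: lesion 2 had a noise SD of 0.68 and a level of −0.059, and lesion 1 had 0.63 and −0.31. The relation with the share of tumour spots above background was 0.56 on slide 1 and 0.57 on slide 2 (exact permutation p = 0.367 and 0.267). The part of array quality in the low levels was not tested further.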

How the data were processed

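For each of the 21 arrays the authors deposited the spot intensity of both channels as written by Agilent Feature Extraction 11.0.1.1, with processed signals after background subtraction and dye normalization and a log10 ratio of reference over tumour. They also deposited loess-normalized log2 ratios for 11526 probes, 722 of them on chromosome 4, used here as an alternative. The steps by which that table was made are not given in the sources used here, and the study's methods do not describe this assay. Probe positions are those of mm9 (NCBI37), per the file headers. Its direction was read by setting the deposited log10 ratio against both processed signals, which matched to 0.001 in 99.42% or more of an array's spots.

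Control spots and outliers were left out and spots of 1 probe averaged. Each log2 ratio, tumour over reference, was centred on the median of each array, with no loess or quantile step, so every level is relative to the rest of that genome. The GC correction fitted each array on GC content, both of the probe sequence and of 50 kb around its exact match in GRCm38, annotated with GENCODE. Its fit used the autosomes other than chromosome 4. Segments were found by optimal partitioning (penalty factor 3, at least 10 probes), and losses had a mean of −0.2 or less. Windows of 1 Mb needed 5 probes on an array. Groups were compared with limma 3.58.1 in R 4.3.3 (mouse as random block, Benjamini-Hochberg over all chromosomes or windows) and with exact two-sided permutation of mouse means, run in Python 3.11.15 (scipy 1.17.1, numba 0.67.0, numpy 2.4.6 and pandas 2.3.3). Relations with array measures used 100000 permutations, or all orders within a slide. The number of arrays limits the precision. The steps were tested on simulated data.

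Named by rule were each tumour's level, the lowest segments, the 3 lowest and 3 highest windows before and after GC correction, the window with the smallest p, the probe common to both designs nearest to the median of the extreme windows, and lists of genes, of which 9 had no probe named for them and were not analysed here. Values of some listed genes are not reported here. The window with the smallest p was added after the values were seen. The chromosome and the lists were chosen with earlier results of these data known.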

Additional observations from a re-analysis of the deposited data

Results flagged for a closer look

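Single mice stood apart from the other 6 of their group in 3 of 16 groups of values examined, by a gap to the nearest mouse above Dixon's critical share of the range, a rule that flags about 1 in 20 groups of normally distributed values by chance. Shares that are mostly 0 are not normally distributed, so the number of such mice is not set against chance. Mouse 2088 on CD-HFD had a GC-corrected difference between the distal part of chromosome 4 and the rest of 0.11, against −0.046 to 0.0017 in the other CD-HFD mice. Its only tumour is the one with the 20.01-Mb proximal loss. Mouse 604 with anti-PD1 was at −0.052 in the same measure, against −0.024 to −0.011 in the other anti-PD1 mice. Mouse 822 on CD-HFD had 54.1% of chromosome 4 in segments called gained before the GC correction, against 0% to 0.335% in the other CD-HFD mice, and 0% after it. Its array had the steepest GC slope, −0.58 per 10 percentage points, and the part of that slope in the calls was not tested apart from the correction.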

How the results depend on the processing

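The group difference of the chromosome 4 level kept its direction, anti-PD1 higher, in 12 of 13 alternatives (0.017 to 0.056, adjusted p from 0.840 to 0.974) and with each mouse left out (0.011, without mouse 2064, to 0.052). With array weights in limma it reversed to −0.0053, and 14.4% of the 132 windows of chromosome 4 (19) then had an unadjusted p under 0.05, against 13.9% of all 2223; the cause was not tested. No alternative called a window of chromosome 4 (0 in each, and 0 in every fit without 1 mouse). Over corrected and uncorrected settings, in the share of the chromosome lost, anti-PD1 minus CD-HFD ran from −16.2 to −1.62 percentage points (exact permutation p from 0.192 to 0.892). Single mice were dropped for the uncorrected share only, where it ran from −13.1 to −2.22. The distal difference ran from −0.052 to −0.019 over the alternatives and, uncorrected, from −0.064 to −0.018 with each mouse left out. The level over the mice was −0.054 ± 0.065 (SD, n = 14), and −0.059 to −0.044 with each mouse left out. It was −0.032 after GC correction, −0.10 when centred on the mode and −0.096 in the authors' loess-normalized ratios. With the median profile of all tumours subtracted it was 0.0057. That step takes away what the tumours share in each window, so this value says nothing on a shared level. Leaving out lesion 1 of mouse 608, chosen after the data were seen, gave a group difference of 0.029. No paired analysis was possible because each mouse belongs to 1 group only and no replicate number links mice.

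Levels depend on where an array is centred, since ploidy was not measured. Centred on the mode without the GC correction, lesion 4 of mouse 1770, lesion 3 of mouse 608 and lesion 5 of mouse 612 were at −0.22, −0.22 and −0.24, and with it at −0.012, −0.075 and −0.19. Normexp background correction moved lesion 1 of mouse 1770 from −0.21 to −0.11 and lesion 1 of mouse 2064 from −0.31 to −0.21. After lesion 1 of mouse 608 (65.0%), these arrays had the lowest shares of tumour spots well above background, 82.1% and 85.8%.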
